A study of Mus musculus with 23 samples.

Results

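T cells enter and stay in the gut by way of homing receptors and integrins, and 6 genes for such proteins are described here: Gpr15, Ccr9, Itgae, Itga4, Itgb7 and Itgb1. They were chosen by name out of 32285 genes in the expression matrices, with results of these data already known, among them higher Gpr15 and lower Ccr9 in lymph node CD8 T cells of mutant mice. Values of the 6 genes between genotypes in lymph node CD8 cells are therefore given as a description, with fold changes and no p. The choice may also bear on their genotype p-values in CD4 and Foxp3 cells, which are a description too. Levels were read as unique molecular identifiers (UMIs, each standing for 1 captured mRNA molecule) in T cells picked by marker genes in single-cell RNA sequencing libraries.

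The mice were labelled C57BL/6 (the edited lines were made on C57BL/6N by the methods of the study), were 2 months old, and differed in STAT5B, a transcription factor downstream of cytokine receptors. A tyrosine of STAT5B was left as wild type (WT) or changed to phenylalanine (Y665F) or histidine (Y665H) in the germ line, so that every cell type carried the change. The lymph node (LN) set held 7 libraries: 2 of WT, 3 labelled Y665F het (1 edited allele) and 2 labelled Y665F homo (2 edited alleles). The spleen set held 1 library each of WT, Y665H and Y665F, with no allele number in the labels. By the text of the study they came from CD45+ cells. A legend on the spleen data gives 1 combined sample of 3 mice per group but names lymph nodes, so whether each spleen library pools mice is not settled. Nothing in the labels says that the LN libraries came from separate mice, so p-values measure only the spread between these libraries.

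GPR15 and CCR9 are chemoattractant receptors. GPR15 directs T cells to the large intestine and the skin, and CCR9 responds to CCL25, which is made in the small intestine and the thymus. Integrins work as pairs of an alpha and a beta subunit: ITGA4 with ITGB7 binds MAdCAM-1 on gut vessels, ITGA4 with ITGB1 binds VCAM-1 on inflamed vessels, and ITGAE (CD103) with ITGB7 binds E-cadherin on epithelial cells. A UMI level says nothing of the protein or of which pairs formed.

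T cells were gated on UMIs of defining genes: a CD8 gate (Cd8a or Cd8b1, no Cd4, no Foxp3), a CD4 gate (Cd4, no CD8 gene, no Foxp3) and a Foxp3 gate (Foxp3, the regulatory T cell factor, with no CD8 gene), each with a T cell receptor complex gene and few B or myeloid UMIs. A gate on B cells gave the background of genes that B cells should lack. The LN gates held 14963 cells and the spleen gates 9097. Per LN library, 1003 to 2401 CD8, 120 to 870 CD4 and 36 to 209 Foxp3 cells were gated. The LN libraries held 2621583 to 16101373 UMIs in all, and het replicate 3 and homo replicate 1 were far shallower than the rest, with a median of 368 and 395 UMIs per barcode against 874 to 3116. Any pair of libraries shared at most 91 barcodes, and at most 1.56% of the smaller library. Levels are given as CPM, the UMIs of a gene per 1000000 UMIs of the gate, and are compared only within a tissue. In summed cells, fewer cells with the mRNA and less mRNA per cell cannot be told apart.

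All 6 genes lie on autosomes (GRCm38, GENCODE vM21). Gpr15 spans 58717433 to 58719070 on the minus strand of chromosome 16, Ccr9 123678439 to 123784330 on the plus strand of chromosome 9 and Itgae 73090583 to 73147446 on the plus strand of chromosome 11. Itga4 spans 79255426 to 79333123 on the plus strand of chromosome 2, Itgb7 102215995 to 102231944 on the minus strand of chromosome 15 and Itgb1 128685654 to 128733200 on the plus strand of chromosome 8.

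The promoters of the 2 chemoattractant receptor genes are printed because these receptors had opposite values in CD8 cells. They are from RefSeq (GRCm38.p6), run 5′ to 3′ from 250 bases before to 50 bases after the RefSeq start of the gene, which for both genes lies inside the GENCODE span given above, and were searched on both strands for TTCNNNGAA, the letters of a STAT binding motif, and for AACCACA, those of a RUNX motif, which reads TGTGGTT on the opposite strand. The TTCNNNGAA motif reads the same on both strands. RUNX factors take part in the choice between the CD8 and CD4 lineages. Capitals mark AACCACA.
Gpr15, chr16:58718823-58719122, minus strand: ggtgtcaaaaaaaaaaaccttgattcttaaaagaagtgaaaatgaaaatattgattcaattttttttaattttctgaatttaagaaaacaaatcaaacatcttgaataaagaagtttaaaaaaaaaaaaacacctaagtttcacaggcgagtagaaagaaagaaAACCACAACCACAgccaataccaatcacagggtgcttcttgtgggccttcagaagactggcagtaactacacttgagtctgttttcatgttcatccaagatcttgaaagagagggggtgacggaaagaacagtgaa
Ccr9, chr9:123766961-123767260, plus strand: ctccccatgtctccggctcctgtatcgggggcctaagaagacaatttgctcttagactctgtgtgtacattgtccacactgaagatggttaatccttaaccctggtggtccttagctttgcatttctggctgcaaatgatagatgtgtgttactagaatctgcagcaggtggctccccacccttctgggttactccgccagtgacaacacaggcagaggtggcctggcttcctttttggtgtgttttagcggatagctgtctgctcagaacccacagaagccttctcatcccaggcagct
The Gpr15 window held AACCACA at 2 places that share 1 base, starting 86 and 80 bases before the start, and 2 or more matches were present in 0.204% of 32851 promoters (5.27% had at least 1). The Ccr9, Itga4, Itgb7 and Itgb1 windows held none, and TTCNNNGAA was in none of the 5 windows, against 8.30% of all promoters. Itgae had no entry. A match of letters is not a binding site, and no match says only that these letters are not in the window.

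In LN CD8 cells Gpr15 was higher in all 5 Y665F libraries than in both WT. It stood at 0.661 and 2.41 CPM in WT, from 1 and 9 UMIs. The het libraries gave 10.5, 6.97 and 3.58 CPM (82, 24 and 2 UMIs), and the homo libraries 11.5 and 14 CPM (8 and 34 UMIs). The 3 genotypes did not overlap in CPM and followed the number of edited alleles, though the 95% counting interval of het replicate 3 (0.434 to 12.9 CPM) covers both WT values. This order of libraries is one that 1.16% of the 9565 genes tested in this gate showed in the rising direction. In the edgeR fit the log2 fold change over WT was 2.87 (SE 0.50) for homo and 2.27 (SE 0.45) for het, and when single libraries were left out these ran from 2.53 to 4.26 and from 1.80 to 3.68, the highest without WT replicate 2 and the lowest without WT replicate 1 and het replicate 1. After each cell was thinned to 500 UMIs, a Gpr15 UMI was held by 0.0875% and 0.292% of WT CD8 cells, by 0.414%, 0.249% and 0.187% for het and by 0.699% and 0.612% for homo. Het replicates 2 and 3 thus lay between the WT shares when thinned. These shares come from a single random draw per library and rest on few cells, so their order may change with another draw. Thinning kept only 534 of 1003 CD8 cells in het replicate 3 and 715 of 1223 in homo replicate 1. The thinned shares of these 2 libraries describe only their deeper cells. B cells, which should lack it, held none when thinned (0 of 2336 cells in WT replicate 1, which allows a share of up to 0.128%), but the 2 shallow libraries left only 46 and 50 B cells at this depth. Without thinning the CD8 shares were 0.0866% and 0.375% in WT, then 3.26%, 1.12% and 0.199% for het and 0.654% and 1.86% for homo, at median depths of 511 to 3912 UMIs per CD8 cell and 304 to 1949 per B cell.

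Ccr9 went the other way. The LN CD8 gate held 80.0 and 72.8 CPM in WT, while het libraries held 40.0, 45.0 and 26.9 CPM and homo libraries 15.8 and 23.5 CPM. The groups again did not overlap and followed the allele number, as did 1.73% of genes in the falling direction. The log2 fold change over WT was -1.74 (SE 0.21) for homo and -0.82 (SE 0.15) for het, and homo over het gave -0.92 (SE 0.21), which was -1.42 without homo replicate 2. The thinned shares of CD8 cells with a Ccr9 UMI were 4.02% and 4.16% in WT, 2.07%, 2.62% and 1.12% for het and 0.280% and 1.65% for homo, against at most 0.0450% of B cells in any LN library. Unthinned, they were 8.83% and 10.0% in WT, 12.4%, 8.23% and 1.5% for het and 0.899% and 2.88% for homo. The deepest library, het replicate 1, thus stood above WT before thinning and below it after. In het replicate 3 and homo replicate 1 the thinned Ccr9 shares describe only the deeper CD8 cells.

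Among the integrin subunits of the LN CD8 gate, Itgae was lower and Itgb1 higher in homo than in WT, while the shared partners Itga4 and Itgb7 had small log2 fold changes. Itgae read 66.1 and 87.0 CPM in WT. Its het values were 35.3, 47.3 and 69.9 CPM and its homo values 30.2 and 27.6 CPM, and het replicate 3, a shallow library, lay between the 2 WT values. Its log2 fold change was -1.41 (SE 0.23) for homo and -0.81 (SE 0.17) for het, the latter -0.51 without het replicate 1. Itgb1 read 63.5 and 53.5 CPM in WT against 74.3, 69.4 and 96.8 CPM for het and 84.9 and 101 CPM for homo, all mutant libraries lying above both WT. The log2 fold change was 0.81 (SE 0.16) for homo and 0.46 (SE 0.14) for het, the latter 0.26 without WT replicate 2. Itga4 was 151 ± 0.751 CPM (SD, n = 2) in WT, 123 ± 14.4 CPM (SD, n = 3) for het and 141 ± 12.6 CPM (SD, n = 2) for homo, with all 5 Y665F libraries below both WT (homo replicate 2 by less than its counting error) and log2 fold changes of -0.22 (SE 0.12) for het and -0.01 (SE 0.14) for homo. Itgb7 was 242 ± 6.95 CPM (SD, n = 2) in WT and 219 ± 14.3 CPM (SD, n = 2) for homo, with -0.11 (SE 0.13). The shares of all genes with the library orders of Itgb1 and Itga4 are not given, so nothing is read from these orders.

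**Figure D1:**
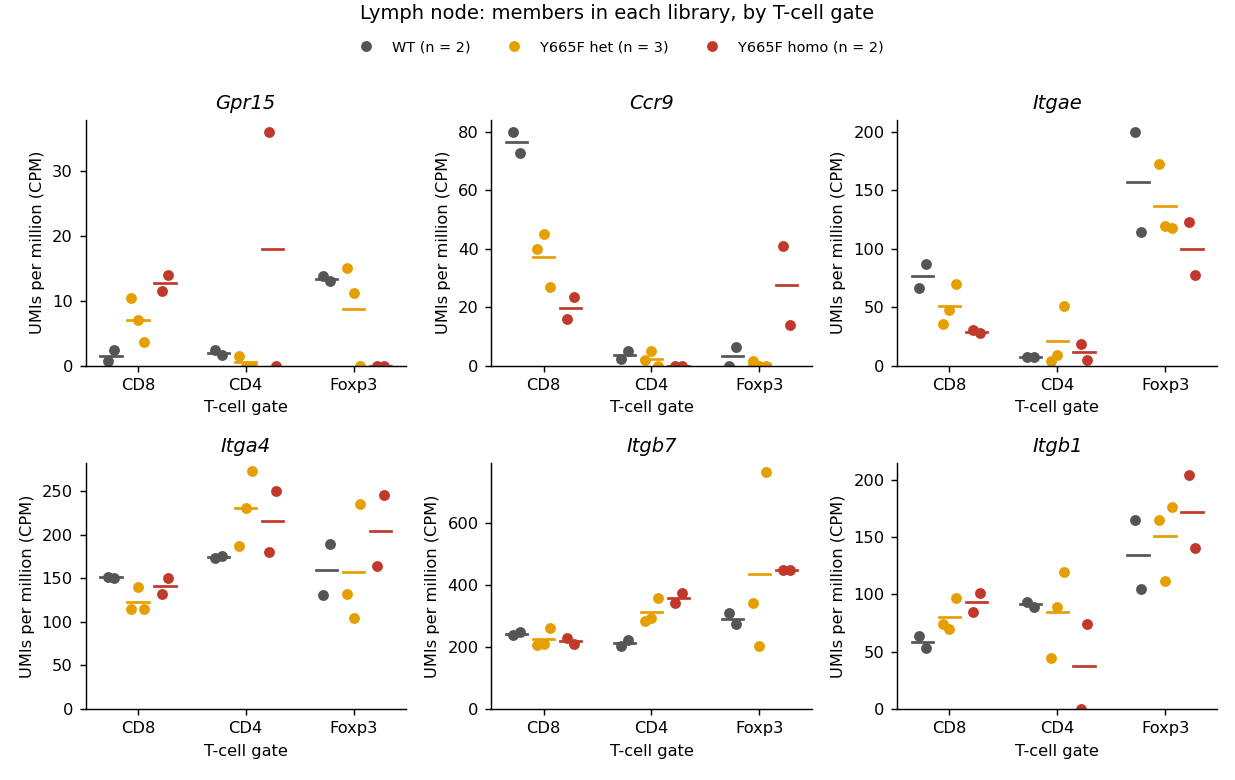
CPM (y axis, linear) of each member in the CD8, CD4 and Foxp3 gates (x axis) of the lymph node; each point is 1 library and each short line a group mean. In the CD8 gate the homo points lie above WT for Gpr15 and Itgb1 and below it for Ccr9 and Itgae, and in the CD4 gate all 5 Y665F points lie above WT for Itgb7. The high Gpr15 point in the CD4 gate rests on 2 UMIs and the homo Ccr9 points in the Foxp3 gate on 1 and 2.

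The members also differed between kinds of CD8 cell. Ccl5, a chemokine gene of memory and effector CD8 cells, was used to split the CD8 gate into cells with at least 1 Ccl5 UMI and cells with none, compared within each LN library by a fit with the library as a block. Called here, and below, means an adjusted p under 0.05 by edgeR's quasi-likelihood test with Benjamini-Hochberg adjustment over all genes tested, and an absolute log2 fold change over 1. Of the 5 members tested, 3 were called, where 1.97% of 7862 genes were. Nothing is read from this count, since Ccr9 and Itgae did not pass the low-count filter in Ccl5-positive cells alone and entered only through the Ccl5-negative cells, where they are high. Their values are given with no p.

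Ccr9 was lower in Ccl5-positive cells (log2 fold change -4.03, SE 0.20). Its level there was 6.11 and 9.12 CPM in WT, 3.06, 2.68 and 0 CPM for het and 0 and 4.56 CPM for homo, each from 10 UMIs or fewer. Itgae was also lower (-3.13, SE 0.18), with 2.75 to 27.4 CPM in Ccl5-positive and 50.6 to 98.0 CPM in Ccl5-negative cells. Itgb1 was higher in Ccl5-positive cells by 1.57 (SE 0.09, adjusted p = 1.11e-27), at 120 to 165 CPM against 38.2 to 67.4 CPM. For each of these 3 genes the 2 classes of cell did not overlap across the 7 libraries. The share of all genes with this pattern was not computed, so nothing is read from it.

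Itga4 (log2 fold change -0.75, SE 0.08, adjusted p = 1.37e-13) and Itgb7 (-0.55, SE 0.06, adjusted p = 1.63e-13) were lower in Ccl5-positive cells by less than the fold limit. With the 2 WT libraries alone Itga4 gave -0.20 (adjusted p = 0.807) and Itgb7 -0.48 (adjusted p = 0.135). Gpr15 did not pass the filter on low counts in this comparison, but 139 of its 160 LN CD8 UMIs fell in Ccl5-positive cells. Its level there was 6.11 and 18.2 CPM in WT, 23.0, 16.1 and 10.5 CPM for het and 20.0 and 23.5 CPM for homo, against 0 to 5.06 CPM in Ccl5-negative cells.

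**Figure D2:**
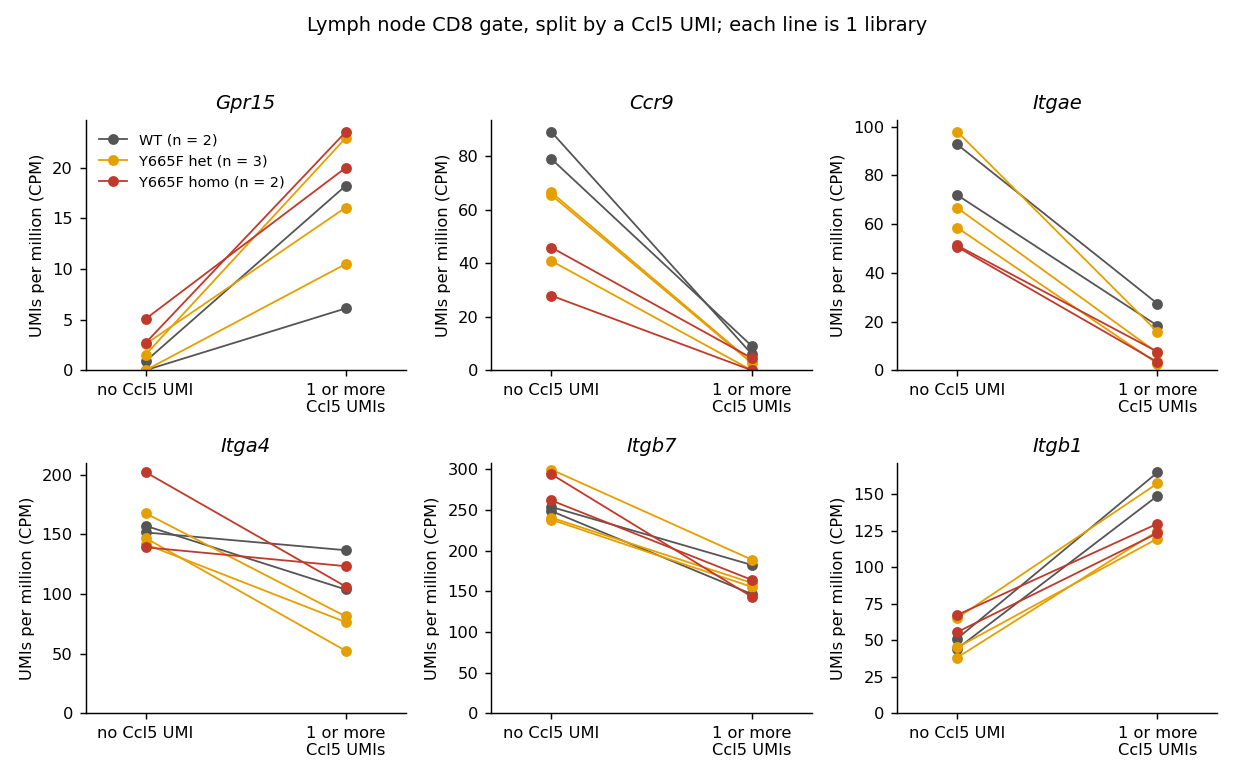
CPM (y axis, linear) of each member in lymph node CD8 cells without (left) and with (right) a Ccl5 UMI; each line joins the values of 1 library. Gpr15 and Itgb1 are higher on the right in every library and Ccr9 and Itgae lower, in WT as in Y665F.

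The share of CD8 cells with a Ccl5 UMI differed between genotypes. It was 8.14% and 7.08% in WT, 36.4%, 27.5% and 29.9% for het and 39.4% and 48.0% for homo LN libraries, while at most 0.713% of LN B cells held a Ccl5 UMI. Thinned to 500 UMIs it was 4.81% and 4.12% in WT, 22.5%, 17.6% and 37.6% for het and 44.3% and 38.8% for homo, beside at most 6.52% of B cells (homo replicate 1). The CD8 share rose on thinning in het replicate 3 and homo replicate 1, where only the deeper cells were kept. There Ccl5-positive cells were deeper than Ccl5-negative ones, with a median of 605.5 against 481 and 581.5 against 497 UMIs. Genotype values within each class of CD8 cell are a description. At lower depth more cells with Ccl5 mRNA fall in the negative class, and thinning took het replicate 1 from 36.4% to 22.5%. Ccl5-negative cells held a median of 481 UMIs in het replicate 3 and 497 in homo replicate 1, against 1192 and 1422 in WT. The part of this in the values below was not tested. In Ccl5-negative cells Ccr9 read 89.0 and 78.9 CPM in WT against 66.4, 65.4 and 40.8 CPM for het and 27.9 and 45.8 CPM for homo, all mutant libraries below both WT, with a homo log2 fold change of -1.0 (SE 0.22) against -1.74 in the whole gate. Itgae in these cells read 71.9 and 92.7 CPM in WT and 50.6 and 51.2 CPM for homo (log2 fold change -0.71), with het at 58.6, 66.7 and 98.0 CPM, all above homo, with 2 below WT and 1 above it. Itgb1 read 51.2 and 44.3 CPM in WT and 55.7 and 67.4 CPM for homo in Ccl5-negative cells. In Ccl5-positive cells it read 165 and 149 CPM in WT and 123 and 130 CPM for homo. Its homo level was thus above WT in the former and below it in the latter, with log2 fold changes of 0.48 (SE 0.21) and -0.24 (SE 0.22). Shares of all genes with such library orders within a class of cell are not given, so nothing is read from the orders.

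The 2 classes were then combined at the WT share of Ccl5-positive UMIs (9.39%) in every LN library, an alternative added after the data were seen. The log2 ratio of mean CPM, homo over WT, went from 3.05 to 1.85 for Gpr15, from -1.96 to -1.19 for Ccr9, from -1.41 to -0.72 for Itgae and from 0.67 to 0.22 for Itgb1. Each kept its direction for homo at a smaller size. The limit of the Ccl5 split in shallow libraries holds for these ratios too. For het over WT, Gpr15 went from 2.19 to 0.86, with het libraries at 3.54, 3.85 and 0.985 CPM and WT at 0.574 and 2.51 CPM, so that het replicate 3 lay between the WT values. Het Itgb1 went from 0.45 to -0.01, at 46.4, 52.2 and 74.0 CPM against 61.9 and 54.1 CPM in WT, with 2 of the 3 het libraries below both WT and 1 above them. The gamma-delta T cell marker genes, 6 in all, summed to 16.5 and 10.7 CPM in WT, 40.8, 33.4 and 43.0 CPM in het and 90.7 and 80.7 CPM in homo CD8 gates. The NK cell marker genes, 4 in all, summed to 6.61 and 4.28 CPM in WT, 19.8, 14.2 and 35.8 CPM in het and 15.8 and 18.5 CPM in homo CD8 gates, with 0 to 2 of them at 0 in a library, and their part in the member values was not tested. With cells holding a Trdc UMI left out, the homo log2 fold changes were 2.86 for Gpr15, -1.71 for Ccr9 and -1.40 for Itgae. How much of each difference came from the mix of cells was not tested beyond these values.

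**Figure D3:**
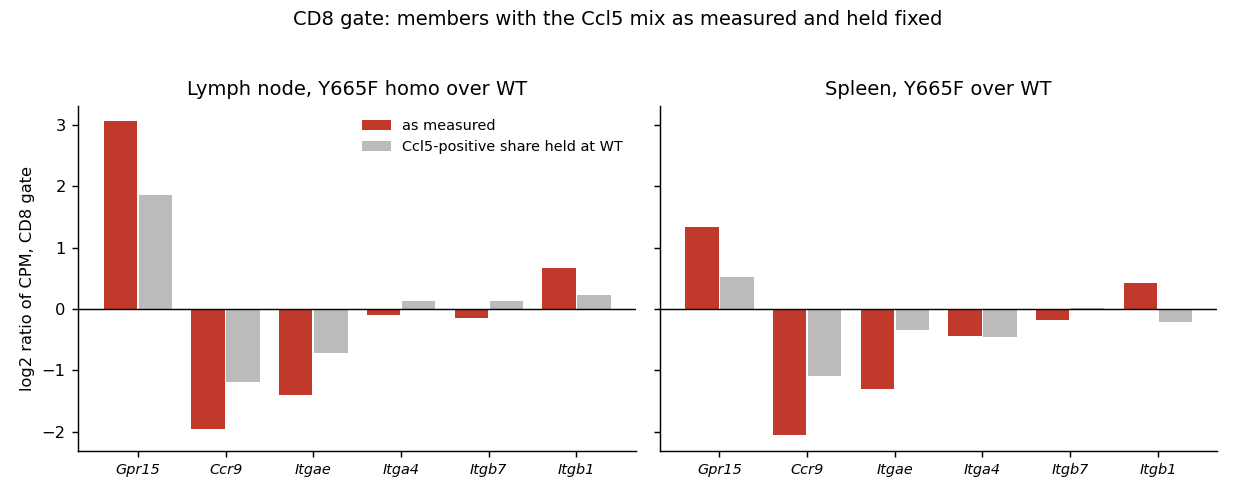
log2 ratio of CPM in the CD8 gate (y axis) for each member in the lymph node (homo over WT, ratio of group means) and the spleen (Y665F over WT, 1 library each); red bars are as measured and grey bars hold the Ccl5-positive share at that of WT. In the lymph node Gpr15, Ccr9, Itgae and Itgb1 keep their direction with shorter grey bars, while Itga4 and Itgb7 change sign there. In the spleen Itgb1 and Itgb7 change sign.

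Between gates, Ccr9 and Itgae set the CD8 gate apart from the CD4 gate. Both did not pass the low-count filter in the CD4 gate alone and entered the comparison only through CD8 cells, where they are high, so they are given with no p. Nothing is read from the count of members called, 2 of 5, where 3.26% of 7770 genes were. Ccr9 was higher in CD8 than in CD4 cells in all 7 libraries, with a log2 fold change of 4.21 (SE 0.22). The CD4 gate held 0 to 4.93 CPM of it, from 16 UMIs in all. B cells held 0 to 6.11 CPM, the highest in the shallow het replicate 3. Group means in CD4 and B cells were 3.61 and 0.886 CPM in WT and 2.29 and 2.75 CPM for het. Both were 0 for homo. Itgae was higher in CD8 cells in all 7 libraries, with a log2 fold change of 3.16 (SE 0.19). Itga4 was lower (-0.42, SE 0.07, adjusted p = 2.85e-07), under the fold limit, and gave -0.07 with WT libraries alone (adjusted p = 0.822). Itgb7 (-0.18, SE 0.07, adjusted p = 0.0416) turned to 0.31 in WT alone (adjusted p = 0.0361), and its adjusted p was 0.05 or higher under 6 other settings and without any 1 of the 5 Y665F libraries, with values of -0.30 to -0.09 over single libraries left out. Itgb1 did not pass (0.16, SE 0.11, adjusted p = 0.323) and was lower in CD8 cells in WT alone (-0.54, adjusted p = 0.0114). Gpr15 did not pass the low-count filter.

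Foxp3 cells stood apart by Itgae, with a log2 fold change over CD4 cells of 4.41 (SE 0.25). It too entered only through the gate where it is high and is given with no p, so nothing is read from the 1 of 4 members called, where 3.22% of 4473 genes were. The stricter gate took Foxp3 cells with a UMI of Il2ra or Ctla4, not those with a higher Foxp3 count. Under it, without the shallow libraries (under 10 cells), 3 members were tested, without Itgae, and 0 were called. For Itgae, Foxp3 gates held 200 and 114 CPM in WT, 173, 119 and 118 CPM for het and 123 and 77.2 CPM for homo. The CD4 gates held 3.50 to 51.3 CPM, and the 2 gates did not overlap. The share of all genes with this pattern was not computed, so nothing is read from it. Itgb1 was also higher in Foxp3 cells (0.98, SE 0.15, adjusted p = 1.02e-07), just under the fold limit. It was 0.40 in WT alone (adjusted p = 0.396), 0.53 without het replicate 1 (adjusted p = 0.0413), and past the fold limit without WT replicate 1 (1.01), WT replicate 2 (1.18) or het replicate 2 (1.12). It was also past it in cells with a T cell receptor beta contig (1.06), without called doublets (1.05) and without the TMM normalization (1.04). Itga4 was lower (-0.43, SE 0.12, adjusted p = 0.00429). Its adjusted p was 0.108 with DESeq2, 0.898 in WT alone (-0.08), 0.105 without het replicate 1 and 0.125 without het replicate 2 (-0.28). Itgb7 did not pass (0.15, SE 0.10, adjusted p = 0.314). For Gpr15, 19 UMIs were found in all LN Foxp3 gates, at 13.8 and 13.0 CPM in WT, 15.0, 11.2 and 0 CPM for het and 0 and 0 CPM for homo. A count of 0 there allows up to 177 CPM in het replicate 3, 123 CPM in homo replicate 1 and 21.1 CPM in homo replicate 2, so no difference in Gpr15 between genotypes was detectable in Foxp3 cells at this depth.

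In CD4 cells Itgb7, the beta subunit shared by both gut integrins, was the only tested member whose genotype values passed an adjusted p of 0.05. The members were chosen with results of these data known, so genotype and trend p-values of this gate are a description. Itgb7 read 204 and 224 CPM in WT, 285, 292 and 359 CPM for het and 343 and 374 CPM for homo. All 5 Y665F libraries lay above both WT, as they did for Itga4 (173 and 175 CPM in WT, 187, 231 and 274 CPM for het, 180 and 251 CPM for homo), though for Itga4 the 95% counting intervals of het replicates 1 and 3 and homo replicate 1 reach below both WT values. In all, 2 of the 3 members tested had this order, against 2.93% of 6425 genes. Nothing is read from this count, for the same reason. The Itgb7 log2 fold change over WT was 0.81 (SE 0.17, adjusted p = 0.0125) for homo, under the fold limit, and 0.50 (SE 0.13, adjusted p = 0.109) for het. The adjusted p for homo was 0.9999 with DESeq2 and 0.578 under a stricter gate (at least 2 UMIs of the gate gene), which left het replicate 3 and homo replicate 1 with 4 and 5 cells, too few to enter the fit, and so 1 homo library. It was 0.0584 without WT replicate 1, 0.0892 without WT replicate 2, 0.0552 without het replicate 2 and 0.794 without homo replicate 2, where the log2 fold change was 0.48. An exact two-sided permutation test of its trend over 0, 1 and 2 edited alleles gave p = 0.0286, and 0.343 after adjustment over 12 trends, 6 members in 2 gates (the smallest raw p possible is 0.00952). A single trend at that p adjusts to 0.114, as that of Itgb7 did without called doublets, so no trend alone could pass 0.05 after adjustment. The homo mean behind this trend was 144 CPM above that of WT, but 2.86 CPM under the stricter gate and 32.5 CPM with at least 500 genes per barcode, with an exact permutation p of 0.648 in both. Those means still hold homo replicate 1, with 5 and 7 cells. A higher Itgb7 level in homo was not limited to CD4 cells. In LN B cells its group means were 83.1 CPM in WT, 104 CPM for het and 136 CPM for homo. Both homo libraries lay above both WT there, but not all het libraries did. The B cell values were not tested.

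None of the 3 members tested in the CD4 gate was called in homo or het over WT, where 0.389% and 0.233% of 6425 genes were. Itga4 had a homo log2 fold change of 0.50 (SE 0.20, adjusted p = 0.433) and Itgb1 of -0.43 (SE 0.36, adjusted p = 0.830), with -9.23 to -0.20 over single libraries left out, the lowest from the homo library with no Itgb1 UMI alone. Itgb1 read 93.7 and 89.3 CPM in WT, 44.3, 88.8 and 120 CPM for het and 0 and 74.3 CPM for homo, and the library at 0, homo replicate 1, allows up to 54.1 CPM. Gpr15, Ccr9 and Itgae did not pass the low-count filter, with 9, 16 and 34 UMIs in all 7 libraries. Homo against het gave 0.31 (SE 0.16, adjusted p = 0.934) for Itgb7, 0.19 (SE 0.19, adjusted p = 0.973) for Itga4 and 0.10 (SE 0.37, adjusted p = 0.993) for Itgb1.

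In LN Foxp3 cells none of the 4 members tested was called in homo or het over WT, where 0.0631% and 0.0946% of 3171 genes were, that is 2 and 3 genes by edgeR (221 and 136 at an unadjusted p under 0.05) and 0 by DESeq2 (27 and 5). The homo log2 fold changes were 0.69 (SE 0.28, adjusted p = 0.572) for Itgb7, -0.72 (SE 0.45, adjusted p = 0.778) for Itgae, 0.51 (SE 0.32, adjusted p = 0.778) for Itga4 and 0.31 (SE 0.39, adjusted p = 0.925) for Itgb1. Leaving out single libraries gave 0.24 to 0.74 for Itgb7 (lowest without homo replicate 2) and -1.26 to -0.42 for Itgae (without WT replicate 2 and WT replicate 1). Itgb7 read 310 and 274 CPM in WT and 450 and 449 CPM for homo, with het at 341, 205 and 767 CPM on both sides of these. Whether the homo change differed between Foxp3 and CD4 cells was tested by an interaction, in which 0.0462% of 6498 genes were called and none of 4 members. The differences were -0.15 (SE 0.30) for Itgb7, -0.02 (SE 0.37) for Itga4 and 0.76 (SE 0.49) for Itgb1, each with an edgeR adjusted p of 0.9997. For Itgae the difference was -0.58 (SE 1.17). It did not pass the low-count filter in the CD4 gate alone and is given with no p. Over single libraries left out the differences ran over -0.39 to -0.083 for Itgb7, -0.48 to 0.38 for Itga4, 0.43 to 8.81 for Itgb1 and -1.84 to -0.19 for Itgae. The extremes of Itgb1 and Itgae furthest from 0, and that of Itgb7, are without homo replicate 2.

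The spleen has 1 library per genotype and so no replicate check. Its 95% intervals cover counting error only, and a member is named as past the fold at an absolute log2 ratio over 1 with at least 10 UMIs in 1 of the 2 libraries. In the CD8 gate, Y665F was past the fold for 3 of 6 members, where 7.85% of 12211 genes were, and Y665H for 1 of 6, where 4.68% of 12085 were. The members were chosen with results of these data known. Nothing is therefore read from such counts in the CD8, CD4 or Foxp3 gate of the spleen. Gpr15 stood at 2.63 CPM in WT (Poisson interval 1.80 to 3.71), 1.16 in Y665H (0.581 to 2.08) and 6.65 in Y665F (5.44 to 8.05). Ccr9 was 113 CPM in WT (107 to 119), 112 in Y665H (106 to 119) and 27.2 in Y665F (24.7 to 29.9). Itgae was 43.7 CPM in WT, 46.8 in Y665H and 17.7 in Y665F. On CPM, the Y665F log2 ratios over WT, with exact 95% intervals, were 1.34 (0.76 to 1.96) for Gpr15, -2.05 (-2.21 to -1.90) for Ccr9 and -1.31 (-1.52 to -1.09) for Itgae. For Y665H they were -1.18 (-2.31 to -0.15) for Gpr15, from 11 UMIs against 32, -0.01 (-0.13 to 0.11) for Ccr9 and 0.10 (-0.09 to 0.28) for Itgae.

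The other CD8 members differed less in the spleen. Itgb1 was 120 CPM in WT, 131 in Y665H and 161 in Y665F. In the same order Itga4 was 342, 300 and 251 CPM, and Itgb7 167, 181 and 148 CPM. The Y665F log2 ratios were 0.42 (0.32 to 0.51) for Itgb1, -0.45 (-0.51 to -0.38) for Itga4 and -0.18 (-0.27 to -0.09) for Itgb7. The share of CD8 cells with a Ccl5 UMI was 37.9% in WT, 34.1% in Y665H and 77.6% in Y665F, beside 13.0%, 11.6% and 16.8% of B cells, so the split by Ccl5 is less clean here than in the LN. With the mix held at WT, the Y665F log2 ratio was 0.52 for Gpr15, -1.10 for Ccr9, -0.35 for Itgae and -0.21 for Itgb1, which changed sign.

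Within both classes of spleen CD8 cell Ccr9 was lower in Y665F than in WT: 13.7 against 59.6 CPM with Ccl5, and 80.8 against 151 CPM without. Itgae read 8.89 against 26.9 CPM with Ccl5 and 52.5 against 55.7 CPM without it, the latter a log2 ratio of -0.08 (-0.35 to 0.18). Thinned to 2000 UMIs, a Gpr15 UMI was held by 1.09% of Y665F CD8 cells (exact 95% interval 0.667% to 1.68%), 0.357% of WT (0.131% to 0.776%) and 0.157% of Y665H (0.0190% to 0.566%), and by no thinned B cell. Unthinned, they were 4.72%, 1.34% and 0.772%. For Ccr9 the thinned shares were 4.85% in Y665F, 18.5% in WT and 18.8% in Y665H, beside 0.584%, 0.873% and 1.35% of B cells. The unthinned Ccr9 shares were 11.7%, 36.6% and 36.7%, at a median of 8681, 6774 and 6922 UMIs per CD8 cell.

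**Figure D4:**
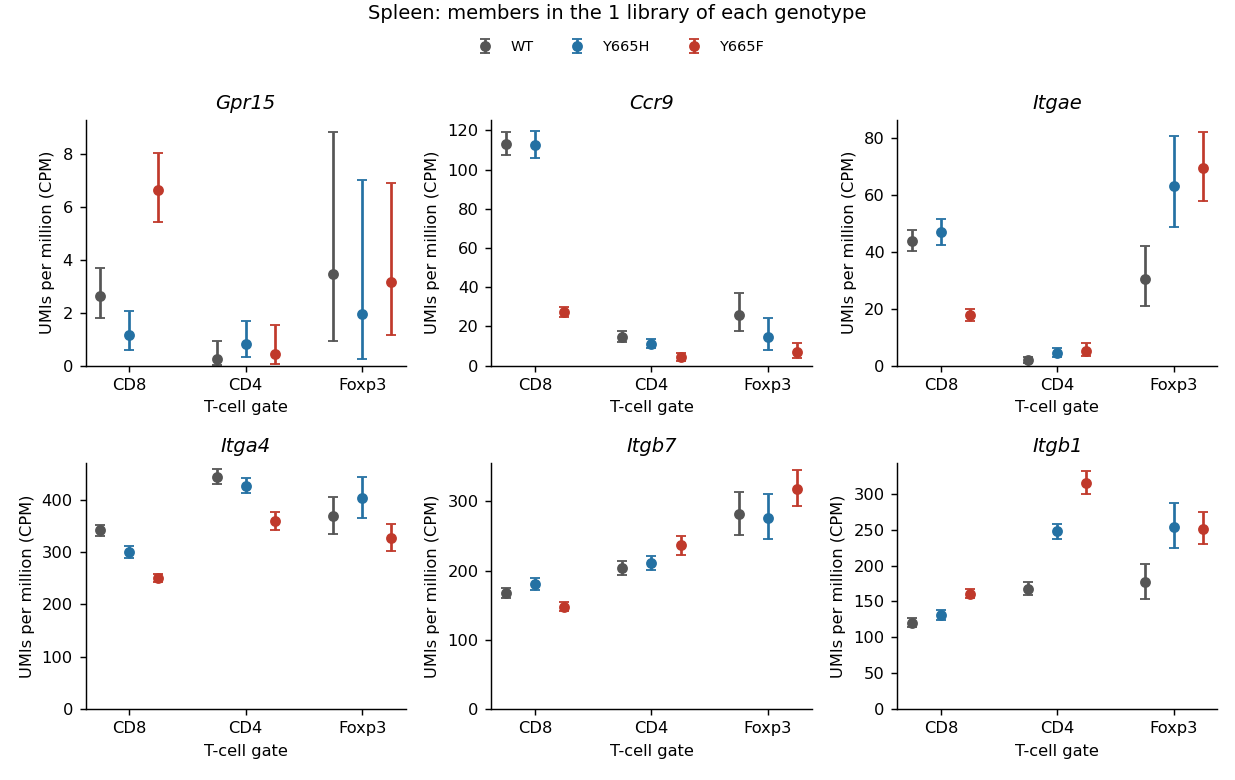
CPM (y axis, linear) of each member in the CD8, CD4 and Foxp3 gates (x axis) of the spleen; points are the 1 library of each genotype and bars exact 95% Poisson intervals of the counts. Y665F stands above WT for Gpr15 and Itgb1 and below it for Ccr9 and Itgae in CD8 cells, while Itgae is above WT in the Foxp3 gate of both mutants.

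In spleen CD4 cells, 2 of 5 members with enough UMIs were past the fold in Y665F and 1 of 5 in Y665H, where 8.0% of 11310 and 4.49% of 11684 genes were. Ccr9, past it in Y665F, was 14.6 CPM in WT, 11.2 in Y665H and 4.22 in Y665F. B cells held 7.49, 12.8 and 4.58 CPM of it, so the CD4 values of both mutants are below the level in B cells and are read as background. Itgae, past it in both mutants, was 1.81, 4.49 and 5.27 CPM, from 14, 38 and 25 UMIs, beside 1.47, 0.754 and 0.980 CPM in B cells. Itgb1 was 167 CPM in WT, 248 in Y665H and 315 in Y665F, log2 ratios of 0.56 (0.46 to 0.67) and 0.91 (0.81 to 1.02), short of the fold. Itgb7 was 203, 211 and 236 CPM and Itga4 444, 427 and 359 CPM. The memory or effector T cell marker genes, 7 in all, summed to 453, 569 and 917 CPM in the WT, Y665H and Y665F CD4 gates. In the same order the 4 regulatory T cell marker genes summed to 107, 127 and 239 CPM and the 5 naive ones to 2591, 2553 and 1991 CPM. Their part in the member values was not tested.

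In spleen Foxp3 cells, 2 of 5 members were past the fold in Y665F and 1 of 5 in Y665H, where 7.80% of 9080 and 6.62% of 8519 genes were. Itgae was 30.3 CPM in WT, 63.2 in Y665H and 69.2 in Y665F, log2 ratios of 1.06 (0.45 to 1.70) and 1.19 (0.65 to 1.77). Ccr9 was 26.0, 14.6 and 6.87 CPM, from 30, 15 and 13 UMIs, past the fold in Y665F, and in both mutants with intervals that overlap those of B cells. Itgb1 was 176, 254 and 252 CPM. Itgae was thus lower than WT in Y665F CD8 cells and higher in Y665F Foxp3 cells of the same library. The part of the mix of cells in these spleen Foxp3 values was not tested.

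The spleen libraries were deep enough to count cells with UMIs of both subunits of an integrin. Thinned to 2000 UMIs, Itga4 and Itgb7 were found together in 12.6% (11% to 14.2%) of WT, 10.8% (9.18% to 12.7%) of Y665H and 11% (9.57% to 12.5%) of Y665F CD8 cells, with exact 95% intervals. Itga4 with Itgb1 was found in 7.80% (6.56% to 9.18%) of WT, 6.99% (5.65% to 8.53%) of Y665H and 11.5% (10.1% to 13.1%) of Y665F cells. Itgae with Itgb7 was found in 2.56% (1.86% to 3.43%), 3.38% (2.45% to 4.52%) and 1.20% (0.753% to 1.81%). In CD4 cells Itga4 with Itgb1 was found in 9.30% of WT, 9.74% of Y665H and 14.3% of Y665F cells. In Foxp3 cells Itgae with Itgb7 was found in 7 of 210 WT, 9 of 184 Y665H and 19 of 309 Y665F cells. The neutrophil marker genes, 6 in all, summed to 23.9 to 31.1 CPM in the WT and 320 to 475 CPM in the mutant T cell gates of the spleen, and their part in the spleen values was not tested.

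Other genes of the pathway were read from 5 lists. The lists were chosen with earlier results of these data known. Nothing is therefore read from the counts of called list genes, and their p-values are a description. Of 20 other homing receptors, 15 were tested in the LN CD8 gate, and 5 were called, all higher, in homo over WT, where 1.18% of 9565 genes were (list median log2 fold change 0.17, all genes 0.00). The largest of these changes were in Ccr2 (2.29, SE 0.43, adjusted p = 0.00401), Cxcr5 (1.63, SE 0.39, adjusted p = 0.0298) and Cxcr3 (1.55, SE 0.15, adjusted p = 3.41e-06), chemokine receptors for inflamed tissue, B cell follicles and interferon-induced chemokines. Cd44 (1.09, SE 0.21, adjusted p = 0.00488), the hyaluronan receptor, was also among the 5 and is named after its value was seen. The share of Ccl5-positive cells moved with genotype, as given above. Within Ccl5-negative CD8 cells 0 of 13 list genes were called in homo over WT by edgeR (list median 0.12), where 0.137% of 8742 genes were (762 at an unadjusted p under 0.05). Within Ccl5-positive cells 0 of 13 were (list median -0.10), where 0.0592% of 5068 genes were (388 unadjusted). In the CD4 gate 1 of 10 was called higher, S1pr4 (1.35, SE 0.23, adjusted p = 6.49e-04), a receptor for sphingosine-1-phosphate, where 0.389% of 6425 genes were (list median -0.02, all genes -0.03). Calls in this gate varied widely with DESeq2 and with single libraries left out, as given below. In the Foxp3 gate none of 9 was called (list median 0.03, all genes -0.01), and the smallest p belonged to Ccr8 (-3.07, SE 0.89, adjusted p = 0.208) and Ccr6 (-2.60, SE 1.03, adjusted p = 0.552). Between Ccl5-positive and Ccl5-negative CD8 cells 6 of 15 were called, all higher, where 1.97% of all genes were, Ccr2 (3.83, SE 0.30) and Cd44 (1.90, SE 0.12) among them. Only 13 list genes passed the low-count filter within each class alone, so nothing is read from this count and no p is given.

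Retinoic acid, TGF-beta and AHR signals are known inputs to gut homing receptors. Of 30 genes on that list 18 were tested in CD8 cells, with 1 called higher in homo over WT, Smad3, a carrier of TGF-beta signals (1.11, SE 0.25, adjusted p = 0.0169), and none lower, where 1.18% of all genes were (list median -0.22, all genes 0.00). Within Ccl5-negative and Ccl5-positive CD8 cells 0 of 17 and 0 of 12 genes of the list were called by edgeR, beside the 0.137% and 0.0592% of all genes given above. In CD4 cells 1 of 16 was called lower, Skil, a repressor of TGF-beta signalling (-1.83, SE 0.38, adjusted p = 0.00934), and none higher, where 0.389% of all genes were (list median 0.00). This call is by edgeR, and far fewer genes were called in this gate with DESeq2, as given below. In Foxp3 cells none of 10 was called (list median -0.16), and the smallest p belonged to Smad7 (-1.24, SE 0.44, adjusted p = 0.432) and Skil (-1.25, SE 0.53, adjusted p = 0.611).

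Of 22 other integrin subunits, 5 were tested in each gate and none was called in homo over WT, where 1.18%, 0.389% and 0.0631% of all genes were in CD8, CD4 and Foxp3 cells (list medians 0.07 in CD8, -0.12 in CD4 and -0.10 in Foxp3 cells). The smallest p belonged to Itgb3 (1.16, SE 0.30, adjusted p = 0.0504) and Itgb2 (0.19, SE 0.14, adjusted p = 0.574) in CD8 cells. In CD4 cells it belonged to Itgal (-0.71, SE 0.25, adjusted p = 0.317) and Itgb3 (0.62, SE 0.29, adjusted p = 0.561), and in Foxp3 cells to Itgal (-1.0, SE 0.39, adjusted p = 0.552) and Itgb3 (0.89, SE 0.83, adjusted p = 0.866). ITGB3 is a partner of the alpha V subunit and ITGAL the alpha subunit of LFA-1. Of 18 genes for integrin activation and adaptors, 15, 15 and 13 were tested in the CD8, CD4 and Foxp3 gates and none was called in homo over WT, beside the same shares of all genes (list medians 0.00, -0.02 and 0.05). The smallest p belonged to Fyb (-0.25, SE 0.14, adjusted p = 0.454) and Vav1 (-0.24, SE 0.14, adjusted p = 0.466) in CD8 cells. In CD4 cells it belonged to Itgb1bp1 (-0.82, SE 0.40, adjusted p = 0.596) and Rassf5 (-0.40, SE 0.23, adjusted p = 0.711), and in Foxp3 cells to Rap1a (-1.33, SE 0.37, adjusted p = 0.174) and Rassf5 (-0.57, SE 0.40, adjusted p = 0.804). Of 6 genes for ligands of the members, Ccl25 alone passed the filter, in the CD8 gate (-0.35, SE 0.30, adjusted p = 0.653) and the CD4 gate (-0.26, SE 0.82, adjusted p = 0.968).

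The genes most like each member were ranked by Pearson correlation of log2(CPM + 1) over 21 sums, the 3 gates of 7 LN libraries, among 3130 genes. The sums share libraries and depth, so the values are a description. Itgae was nearest to Il2rb (0.88), the beta chain of the interleukin-2 receptor, then S100a11 (0.82) and Pglyrp1 (0.81), followed by Apobec3 and Mcm3. Itgb1 was nearest to Rilpl2 (0.95), Plp2 (0.95) and Scaf1, mt-Nd6 and Med14. Its sum in the CD4 gate of homo replicate 1, a shallow library, was 0, which can weigh heavily on these values. Itgb7 was nearest to Sptssa (0.90), Laptm5 (0.88) and Cib1, Tspo and Fxyd5, and Itga4 to Pnrc1 (0.79), Kif21b (0.78) and Selenop, Ppp1r15a and H3f3b. Ccr9 was nearest to Saraf (0.78), Dmac1 (0.77) and Peak1, Ubald2 and Dnajc15. For Gpr15 the order was Fgfr1op2 (0.69), then Mbd3, Mif, Abce1 and Cst7, and most of its values rest on 10 UMIs or fewer.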

How the data were processed

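Single-cell RNA was counted in 7 lymph node and 3 spleen libraries. Per the file headers the authors made the deposited counts (whole UMIs per gene and barcode, filtered matrices) with Cell Ranger 5.0.0 for lymph node and 6.0.0 for spleen on GRCm38, and the submitters' processing notes name Cell Ranger 5.0 and Seurat 4.0. The gates took barcodes holding 200 genes or more, with no more than 10% of their UMIs mitochondrial. UMIs were summed per library and gate, and sums were tested across libraries.

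Sums with at least 10 cells went into edgeR 4.0.16 (quasi-likelihood test, TMM factors, filterByExpr, Benjamini-Hochberg over all genes tested) with limma 3.58.1 in R 4.3.3, one fit of the 7 lymph node libraries per gate, or the library as a block between gates. Each SE is the absolute log2 fold change over the square root of the F statistic. DESeq2 1.42.0, a doublet caller, a stricter gate, other filters, single libraries left out and a replicate block were alternatives, and doublets stayed in otherwise. The stricter gate asked for at least 2 UMIs of the T cell receptor complex genes. CD8 and CD4 cells also needed at least 2 UMIs of the gate genes. Foxp3 cells instead needed a UMI of Il2ra or Ctla4, with no higher Foxp3 count. Shares were thinned to 500 UMIs per cell in lymph node and 2000 in spleen, leaving out shallower cells. Intervals (exact binomial or Poisson, Python 3.11.15) and limits at a count of 0 (3 counts) cover counting error only. Contigs of the T cell receptor beta chain, read for lymph node only, were found in 86.6% to 98.3% of gated T cells and 0% to 4.19% of B cells there. Bone marrow was not used here. The fits were tested on simulated data with known changes.

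Members and lists were chosen with earlier results of these data known. The members are always named. Of each list, up to 3 called genes per direction with the largest homo change are named, or up to 2 with the smallest p where none was called, and the 5 genes most like each member. Values of 1 gene of the homing receptor list, which is counted in the list, are not reported here.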

Additional observations from a re-analysis of the deposited data

Results flagged for a closer look

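In CD4 cells 2 members had opposite directions in the lymph node and the spleen. The share of all genes with this pattern was not computed, so nothing is read from the count. Itga4 was higher in both homo lymph node libraries than in both WT libraries, while the spleen Y665F library stood below WT with a log2 ratio of -0.31. Itgb1 was lower in both homo lymph node libraries than in both WT libraries, while the spleen Y665F library stood above WT with a log2 ratio of 0.91. The lymph node homo change of Itgb1 had an edgeR adjusted p of 0.830 and turned to 0.40 under the stricter gate, which left 1 homo library, and 1 of its 2 homo libraries was at 0, which allows up to 54.1 CPM. That of Itga4 had an adjusted p of 0.433 and turned to -0.14 without homo replicate 2. The difference between the tissues was not tested, since the spleen has 1 library per genotype and the spleen labels give no allele number. Memory, regulatory and naive T cell marker genes also differed between the spleen CD4 gates, as given above.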

How the results depend on the processing

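The cause of each change given here was not tested. Replicate numbers are shared labels only: deviations of same-numbered LN libraries from their group means correlated at -0.102 to 0.058. With the replicate block, 3 genes were called for CD4 cells, homo over het (without it 5) and 30 genes were called for CD8 cells, het over WT (without it 46), and the log2 fold change turned to -0.17 for Itgb1 in CD4 cells, homo over het (0.10), -0.039 for Itgae in Foxp3 cells, het over WT (0.13) and -0.052 for Itgb7 in Foxp3 cells, het over WT (0.13). The block took no member over or under the adjusted p of 0.05.

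Counts of called genes moved by over 1.5 times in the settings given next (TRB cells are those with a contig of the T cell receptor beta chain). With at least 500 genes per barcode the CD4 gates of het replicate 3 and homo replicate 1 held 6 and 7 cells and their Foxp3 gates 2 and 4, and with the stricter gate 4 and 5 and 4 and 7, under the minimum of 10. In fits of these gates both settings therefore also leave out these libraries, with 1 homo library remaining, and the effects of the 2 changes cannot be told apart. For CD4 cells, homo over WT, in place of 25 genes called, there were 2 with DESeq2, 44 with at least 500 genes per barcode and 11 with the stricter gate. For CD4 cells, het over WT, in place of 15 genes called, there were 1 with DESeq2, 38 with at least 500 genes per barcode and 44 with no low-count filter. For CD4 cells, homo over het, in place of 5 genes called, there were 0 with DESeq2, 10 with at least 500 genes per barcode, 3 without Trdc cells, 3 in TRB cells, 3 without called doublets, 8 with no low-count filter and 1 with the stricter gate. For Foxp3 cells, homo over WT, in place of 2 genes called, there were 0 with DESeq2, 23 with at least 500 genes per barcode, 21 without both shallow libraries, 7 without TMM and 13 with the stricter gate. For Foxp3 cells, het over WT, in place of 3 genes called, there were 0 with DESeq2, 12 with at least 500 genes per barcode, 5 in TRB cells, 10 without both shallow libraries and 14 with the stricter gate. For CD8 cells, homo over WT, in place of 113 genes called, there were 58 with DESeq2. For CD8 cells, het over WT, in place of 46 genes called, there were 17 with DESeq2 and 86 with no low-count filter. For CD8 cells, homo over het, in place of 1 gene called, there were 0 with DESeq2, 5 with at least 500 genes per barcode, 2 in TRB cells, 6 without both shallow libraries, 3 without called doublets, 13 with no low-count filter and 6 with the stricter gate. For CD8 over CD4 cells, in place of 253 genes called, there were 385 with at least 500 genes per barcode, 393 without both shallow libraries and 723 with no low-count filter. For Foxp3 over CD4 cells, in place of 144 genes called, there were 268 in WT alone and 469 with no low-count filter. For Ccl5-positive over Ccl5-negative CD8 cells, in place of 155 genes called, there were 355 with no low-count filter. For the Foxp3 by CD4 interaction, in place of 3 genes called, there were 0 with DESeq2, 7 with at least 500 genes per barcode, 7 without both shallow libraries, 1 without called doublets and 5 without TMM. Where DESeq2 called 0 genes, its unadjusted p was under 0.05 for 26 genes (CD4 cells, homo over het), 27 genes (Foxp3 cells, homo over WT), 5 genes (Foxp3 cells, het over WT), 104 genes (CD8 cells, homo over het) and 106 genes (the Foxp3 by CD4 interaction).

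Members turned in direction or lost their adjusted p as follows, as log2 fold changes with the value in the report in parentheses. Itgb7 in CD4 cells, homo over WT (0.81), gave 0.79 with DESeq2 and 0.89 with the stricter gate. Itgb1 in CD4 cells, homo over WT (-0.43), gave 0.40 with the stricter gate. Itgb1 in CD4 cells, homo over het (0.10), gave -0.72 with DESeq2 and -0.23 in TRB cells. Itgae in Foxp3 cells, het over WT (0.13), gave -0.093 with DESeq2 and -0.20 with the stricter gate. Itgb7 in Foxp3 cells, het over WT (0.13), gave -0.0070 with at least 500 genes per barcode and -0.0012 without called doublets. Itgb1 in Foxp3 cells, homo over het (0.039), gave -0.083 with at least 500 genes per barcode, -0.017 in TRB cells, -0.090 without called doublets and -0.057 with no low-count filter. Itga4, CD8 over CD4 cells (-0.42), gave -0.073 in WT alone. Itgb7, CD8 over CD4 cells (-0.18), gave -0.18 with DESeq2, 0.31 in WT alone, -0.18 with at least 500 genes per barcode, -0.17 in TRB cells, -0.17 without both shallow libraries, -0.14 with no low-count filter and -0.14 with the stricter gate. Itgb1, CD8 over CD4 cells (0.16), gave -0.54 in WT alone and -0.035 with the stricter gate. Itga4, Foxp3 over CD4 cells (-0.43), gave -0.43 with DESeq2 and -0.083 in WT alone. Itgb1, Foxp3 over CD4 cells (0.98), gave 0.40 in WT alone. Itga4, Ccl5-positive over Ccl5-negative CD8 cells (-0.75), gave -0.20 in WT alone. Itgb7, Ccl5-positive over Ccl5-negative CD8 cells (-0.55), gave -0.48 in WT alone. Itgae, the Foxp3 by CD4 interaction (-0.58), gave 2.34 with the stricter gate. Itga4, the Foxp3 by CD4 interaction (-0.020), gave 0.017 with DESeq2, 0.0060 with at least 500 genes per barcode, 0.0043 in TRB cells, 0.042 without both shallow libraries, 0.12 without called doublets and 0.019 with no low-count filter. Itgb7, the Foxp3 by CD4 interaction (-0.15), gave 0.065 with the stricter gate. The rank statistic of the trend over alleles changed its side of the value with no trend in these settings, where homo minus WT mean differences were 72.5 CPM with at least 500 genes per barcode for Gpr15 in CD4 cells (16.1 CPM), -4.98 CPM with at least 500 genes per barcode for Itgae in CD4 cells (4.18 CPM) and -11.2 CPM with the stricter gate for Itgae in CD4 cells (4.18 CPM). The first of these kept its sign and rests on 1 UMI in a homo library of 7 cells. The mean difference itself also turned to -1.84 CPM with the stricter gate for Gpr15 in CD4 cells and to -7.48 CPM without called doublets for Itgb1 in Foxp3 cells (37.5 CPM).

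Leaving out 1 library at a time, the lowest and highest counts were 2 to 42 for CD4 cells, homo over WT, 6 to 46 for CD4 cells, het over WT, 0 to 10 for CD4 cells, homo over het and 0 to 10 for Foxp3 cells, homo over WT. Counts were 0 to 7 for Foxp3 cells, het over WT, 37 to 132 for CD8 cells, homo over WT, 5 to 60 for CD8 cells, het over WT and 0 to 5 for CD8 cells, homo over het. They were 0 to 7 for the Foxp3 by CD4 interaction. Log2 fold changes ranged over -0.14 to 0.61 for Itga4 in CD4 cells, homo over WT, 0.48 to 0.87 for Itgb7 in CD4 cells, homo over WT, -0.86 to 0.076 for Itgb1 in CD4 cells, het over WT and -0.45 to 0.29 for Itga4 in CD4 cells, homo over het. Further ranges were -0.023 to 0.37 for Itgb7 in CD4 cells, homo over het, -8.71 to 0.43 for Itgb1 in CD4 cells, homo over het, -0.45 to 0.80 for Itga4 in Foxp3 cells, homo over WT and -0.15 to 0.54 for Itgb1 in Foxp3 cells, homo over WT. They also ran over -0.39 to 0.44 for Itgae in Foxp3 cells, het over WT, -0.10 to 0.42 for Itgb7 in Foxp3 cells, het over WT, -0.17 to 0.52 for Itgb1 in Foxp3 cells, het over WT and -0.057 to 1.04 for Itga4 in Foxp3 cells, homo over het. Values were -0.12 to 0.38 for Itgb1 in Foxp3 cells, homo over het, 2.53 to 4.26 for Gpr15 in CD8 cells, homo over WT, -2.26 to -1.62 for Ccr9 in CD8 cells, homo over WT and -0.20 to 0.060 for Itga4 in CD8 cells, homo over WT. The same range was 0.56 to 0.92 for Itgb1 in CD8 cells, homo over WT, -0.30 to -0.093 for Itgb7, CD8 over CD4 cells, -0.17 to 0.41 for Itgb1, CD8 over CD4 cells and -0.57 to -0.28 for Itga4, Foxp3 over CD4 cells. Log2 fold changes ranged over 0.11 to 0.29 for Itgb7, Foxp3 over CD4 cells and -0.48 to 0.38 for Itga4, the Foxp3 by CD4 interaction. Mean CPM differences between homo and WT, with the library left out for the lowest and the highest value, ran over -1.98 to 34.1 for Gpr15 in CD4 cells (from 16.1, without homo 1 and homo 2), -4.87 to -2.34 for Ccr9 in CD4 cells (from -3.61, without WT 1 and WT 2) and -2.52 to 10.9 for Itgae in CD4 cells (from 4.18, without homo 1 and homo 2). They ran over 6.09 to 76.5 for Itga4 in CD4 cells (from 41.3, without homo 2 and homo 1), -91.5 to -17.2 for Itgb1 in CD4 cells (from -54.3, without homo 2 and homo 1), 10.8 to 37.6 for Ccr9 in Foxp3 cells (from 24.2, without homo 1 and homo 2), -100.1 to -14.2 for Itgae in Foxp3 cells (from -57.1, without WT 2 and WT 1), 3.55 to 85.5 for Itga4 in Foxp3 cells (from 44.5, without homo 2 and homo 1) and 5.42 to 69.6 for Itgb1 in Foxp3 cells (from 37.5, without homo 1 and homo 2).

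Leaving out both shallow libraries together and fixing the Ccl5 mix were chosen after seeing the data. Thinned to 300 UMIs in place of 500, the homo share of CD8 cells minus that of WT was 0.244 percentage points for Gpr15 (from 0.466) and -2.11 for Ccr9 (from -3.13). Where leaving out a library left 1 in a group, that library was assumed to vary like the others. The lowest value of Itgb1 in CD4 cells, homo over het, rests on a homo library with no Itgb1 UMI. Depth limits Gpr15, with 1 and 9 UMIs in WT CD8 gates, and all members in Foxp3 cells of the shallow libraries.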
